A study of Mus musculus with 11 samples.

Results

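A set of 10 genes of the early response was followed in mouse hematopoietic stem cells (HSCs): the transcription factors Egr1, Egr2 and Egr3, the immediate early response genes Ier2, Ier3 and Ier5, the antiproliferative genes Btg1 and Btg2, and the mRNA decay factors Zfp36 and Zfp36l1. They were chosen by name, and all 10 had a probe set assigned to a single gene, among 22180 genes so measured. The values were log2 intensities of Affymetrix arrays on 11 samples of HSCs sorted from injected mice. PBS, the vehicle, had 3 samples. ATRA (all-trans retinoic acid, the active form of vitamin A) had 3, pIC (polyIC, a synthetic double-stranded RNA that induces interferon) had 2, and RApIC (ATRA injected first, then polyIC) had 3. Strain, age, dose, interval between injections, sorting gate and the number of mice behind a sample were not given in the sources used. Nothing says that replicates came from separate mice, so the spread that the p-values rest on is that of these samples and may be technical. The RNA is that of a whole sorted population, so fewer cells of a type and less RNA per cell cannot be told apart.

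Early response genes are transcribed within minutes of a stimulus, without new protein synthesis, mostly through serum response factor and its ETS partners and through CREB. Their mRNAs are short-lived and many carry AU-rich elements. EGR proteins bind GC-rich promoter sites and raise their own corepressor NAB2, and EGR1 is known in HSCs as a factor that restrains division and exit into blood. BTG proteins slow the cell cycle and bring the CCR4-NOT deadenylase to mRNAs. ZFP36 proteins bind AU-rich elements and recruit the same deadenylase, which shortens the life of other early response transcripts.

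In pIC against PBS, 5.75% of all genes were called lower and 8.94% higher. Of the HSC markers, 13 genes were measured, and 7 of them fell in pIC against PBS (Procr, Mecom, Hlf, Fgd5, Kit, Meis1 and Ctnnal1). For the HSC list this count was 3 without pIC replicate 1 and 2 without pIC replicate 2, with 963 and 664 of all genes called. The median HSC marker lay at -0.59 and -0.53 in the pIC arrays relative to the PBS mean, and at -0.61, -0.14 and -0.39 in RApIC replicates 1, 2 and 3. The median of 16 markers of T and NK cells lay at 0.35 and 0.76 in pIC and at 1.03, 0.05 and 1.01 in RApIC. The median of 8 measured erythroid markers lay at 0.97 and 1.06 in pIC and at 0.67, -0.29 and 0.48 in RApIC. Of the erythroid cells list 4 rose in pIC against PBS (2 without pIC replicate 1 or any PBS array, 1 without pIC replicate 2). Of 10 megakaryocyte and platelet markers, 4 rose (Itga2b, Gp5, Selp and Treml1) and 2 fell (Pf4 and Vwf) in that comparison. For megakaryocytes and platelets 2 rose without either pIC array, and 1 fell without pIC replicate 1. Of 14 markers of monocytes, macrophages and dendritic cells, Mpeg1 rose by 4.34 (adjusted p = 0.00363) and Ly6c2 by 3.64 (adjusted p = 0.0112, lost without either pIC array). The list median of these 14 lay between -0.05 and 0.14 in the pIC-injected arrays. Of 8 mast cell, basophil and eosinophil markers Gata1 alone rose, and the median difference of that list was 0.0078. No marker of B and plasma cells, neutrophils and precursors, or endothelium and stroma was called in pIC against PBS with all arrays. RApIC replicate 2 stood apart from the other RApIC arrays in the HSC, T and NK cells and erythroid lists. It did so also on the first principal component, where it lay at -4.53, the other RApIC and pIC arrays between 23.3 and 37.8, and PBS and ATRA arrays between -24.5 and -15.1. Of the T and NK cells markers, Nkg7 and Gzmb rose in pIC against PBS with all arrays, and Nkg7 alone in RApIC against PBS. In pIC the call of Nkg7 was lost without pIC replicate 2, and that of Gzmb without either pIC array or any PBS array. In RApIC that of Nkg7 was lost without PBS replicate 1 or 2 or RApIC replicate 1 or 3. Without RApIC replicate 2, 8 of the 16 T and NK cells markers rose in pIC against PBS in place of 2, and 12 in place of 1 rose in RApIC against PBS. Calls over all genes then numbered 4052 in place of 3260 and 2469 in place of 690. The part of these marker changes in the results below was not tested. Array medians over all probe sets lay between 6.19 and 6.28.

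**Figure D1:**
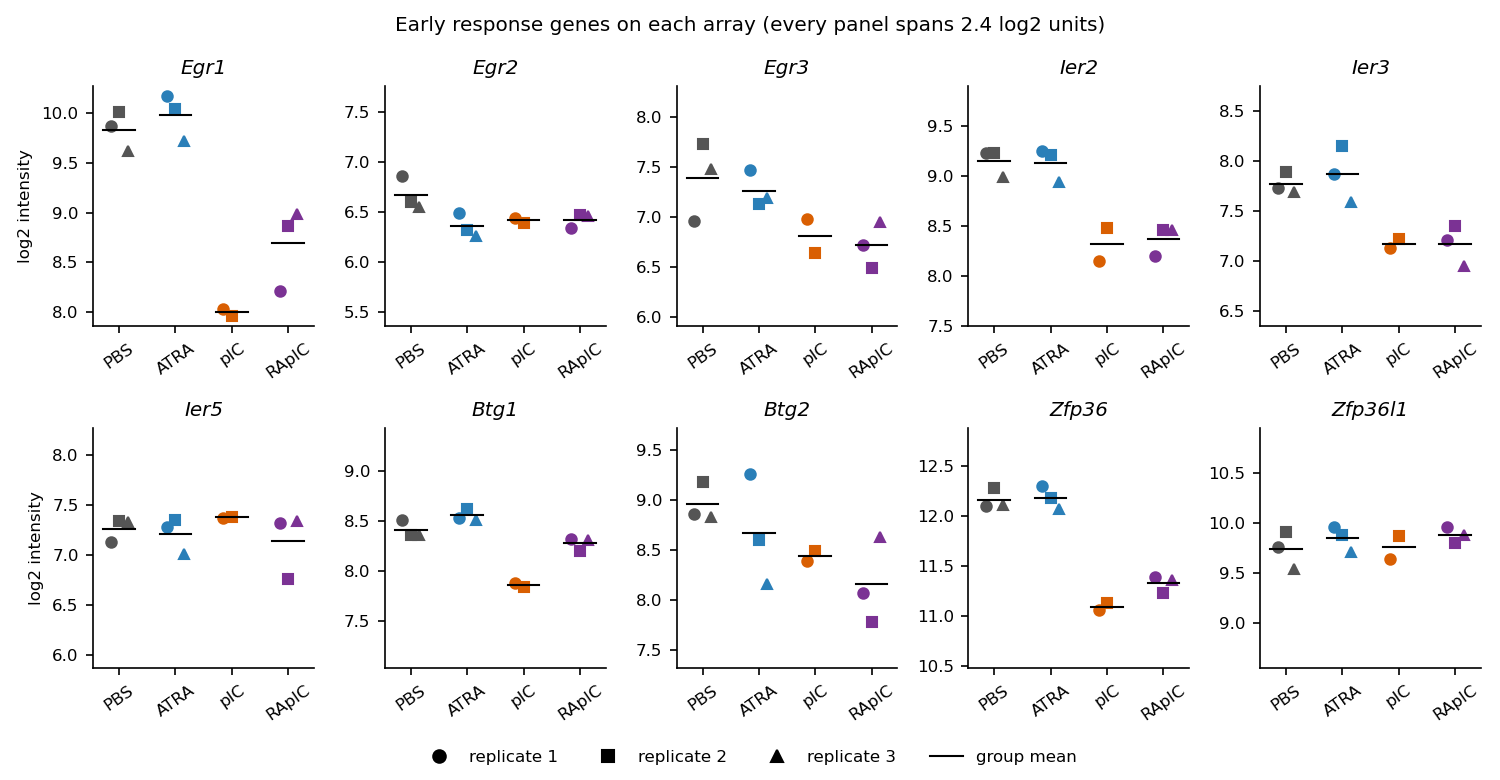
Log2 intensity (y axis, same span in every panel) of each of the 10 genes in every array, by group on the x axis: points are arrays, bars are group means. Egr1, Ier2, Ier3, Btg1 and Zfp36 lay lower in both pIC arrays than in every PBS array, Ier5 lay slightly higher, and the groups overlapped for Zfp36l1.

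Of the EGR genes, Egr1 fell after pIC, by a larger amount than any other of the 10, and fell also in RApIC against ATRA and against PBS. Egr1 stood at 9.86, 10.01 and 9.62 in PBS, 10.16, 10.03 and 9.72 in ATRA, 8.04 and 7.97 in pIC, and 8.22, 8.87 and 8.99 in RApIC. PBS and ATRA arrays overlapped, all RApIC arrays lay between these and the pIC arrays, and no array of a pIC-injected group reached those without pIC. The difference between pIC and PBS was -1.82 ± 0.21 (SE, 3.54-fold lower, limma adjusted p = 0.00117 over all genes). Between RApIC and ATRA it was -1.28 ± 0.19 (adjusted p = 0.00519), and between RApIC and PBS -1.14 ± 0.19 (adjusted p = 0.0135). Only the RApIC and PBS call was lost, without PBS replicate 1 or 2 and in a fit of those groups alone (adjusted p from 0.00534 to 0.0907 over the 19 alternatives).

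Egr2 and Egr3 passed the test in no comparison. Egr2, known for its roles in myelin and lymphocytes, spanned 6.55 to 6.87 in PBS, 6.26 to 6.50 in ATRA, 6.39 to 6.45 in pIC and 6.34 to 6.47 in RApIC. All of its arrays outside PBS lay below the PBS arrays. The difference was -0.32 ± 0.10 in ATRA (adjusted p = 0.562), -0.25 ± 0.11 in pIC (adjusted p = 0.165) and -0.25 ± 0.10 in RApIC (adjusted p = 0.199). Egr3 stood at 6.97, 7.73 and 7.48 in PBS and at 6.98 and 6.64 in pIC, a difference of -0.58 ± 0.21 (adjusted p = 0.0991). PBS replicate 1 lay at the level of the higher pIC array. Without it the difference was -0.80 (adjusted p = 0.028, from 0.028 to 0.459 over the alternatives), and that of RApIC from PBS was -0.89 (adjusted p = 0.0404, from 0.0404 to 0.241).

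A 30-base stretch of Egr2, chr10:67537787-67537816 on the plus strand of GRCm38.p6 (RefSeq), lies within the annotated gene (chr10:67534469-67542188) and upstream of 3 of the 5 starts that have a window. It is shown because it holds a CArG box, the element bound by serum response factor, here in capitals.
Egr2: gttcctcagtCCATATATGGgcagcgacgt
The 250 bases before each RefSeq start were searched on both strands for 8 motifs, and 7 of the 10 genes had such a window: Egr2, Ier3, Ier5, Btg1, Btg2, Zfp36 and Zfp36l1. A CArG box was found in 2 of those 7 genes, Egr2 and Zfp36, and in 1.62% of all 27025 genes with a window (1.47% of all 32851 windows). A match describes the letters of a window and is no evidence of binding.

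Of the other EGR family genes and corepressors, 4 were measured, and Nab2 alone passed the test. Nab2, the corepressor that EGR proteins induce, lay between 9.47 and 9.50 in PBS, at 9.05 and 9.14 in pIC and between 8.83 and 9.11 in RApIC. It fell by 0.39 ± 0.09 in pIC against PBS (adjusted p = 0.0206) and by 0.54 ± 0.08 in RApIC against PBS (adjusted p = 0.00932). The call in pIC was lost without PBS replicate 2 or either pIC array, and that in RApIC without RApIC replicate 3. Egr4 differed by -0.36 ± 0.13 between pIC and PBS (adjusted p = 0.0906).

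Of the IER genes, Ier2 and Ier3 fell in both pIC-injected groups, and Ier5 passed the test in no comparison. Ier2, a nuclear protein induced by growth signals, stood at 9.23, 9.23 and 8.98 in PBS, 8.15 and 8.47 in pIC and 8.20, 8.45 and 8.46 in RApIC. ATRA arrays lay between 8.94 and 9.25, within or next to the PBS range, and all 5 arrays with pIC lay below all 6 without it. Ier2 differed by -0.84 ± 0.14 between pIC and PBS (1.78-fold lower, adjusted p = 0.00464), and its call was lost without pIC replicate 1 (adjusted p = 0.0522, from 0.00273 to 0.0522 over the alternatives). It differed by -0.76 ± 0.12 between RApIC and ATRA (adjusted p = 0.00748) and by -0.78 ± 0.12 between RApIC and PBS (adjusted p = 0.0107). The last call was lost without PBS replicate 2 and in the fit of those groups alone (adjusted p up to 0.0559).

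Ier3, which modulates cell death and ERK signalling, stood at 7.73, 7.90 and 7.69 in PBS, 7.87, 8.15 and 7.59 in ATRA, 7.13 and 7.22 in pIC and 7.21, 7.35 and 6.95 in RApIC. The pIC and RApIC arrays overlapped, and both groups lay below all PBS and ATRA arrays. Its difference was -0.60 ± 0.16 in pIC (adjusted p = 0.0299), and the call was lost without PBS replicate 1 or 2 or either pIC array (adjusted p up to 0.16). Between RApIC and ATRA it was -0.70 ± 0.14 (adjusted p = 0.0174), lost without ATRA replicate 1 or 2 or RApIC replicate 1 or 3 and in the fit of those groups alone (up to 0.0859). Between RApIC and PBS it was -0.60 ± 0.14 (adjusted p = 0.0494), a call lost in 11 of 19 alternatives.

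Ier5, a regulator linked to heat shock factor and phosphatase PP2A, lay between 7.13 and 7.34 in PBS, at 7.38 and 7.39 in pIC, and at 7.32, 6.76 and 7.35 in RApIC. Both pIC arrays were slightly above the PBS arrays, and RApIC replicate 2 was the lowest of the 11. The difference between pIC and PBS was 0.11 ± 0.17 (95% interval -0.26 to 0.49, adjusted p = 0.738), so the interval leaves out a fall of the size measured for Ier2 or Ier3. The related Ier5l differed by 0.0068 between pIC and PBS.

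Of the BTG genes, Btg1 fell in pIC and stood closer to its PBS level in RApIC, and Btg2 was not called in the fit of all 4 groups. Btg1 stood at 8.51, 8.36 and 8.36 in PBS, 8.53, 8.62 and 8.51 in ATRA, 7.88 and 7.84 in pIC, and 8.32, 8.20 and 8.31 in RApIC. The groups did not overlap, in the order ATRA, PBS, RApIC, pIC, although no pair of neighbours in that order passed the test. The difference was -0.55 ± 0.08 between pIC and PBS (1.47-fold lower, adjusted p = 0.00332), a call kept in all 19 alternatives. Between RApIC and ATRA it was -0.28 ± 0.07 (adjusted p = 0.0488), a call lost in 15 of the 19 (adjusted p up to 0.15), RApIC replicate 2 left out among them (0.0789). Between RApIC and PBS it was -0.13 ± 0.07 (95% interval -0.30 to 0.03, adjusted p = 0.384).

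Btg2, a p53 target, stood at 8.86, 9.18 and 8.83 in PBS, 9.26, 8.60 and 8.16 in ATRA, 8.39 and 8.49 in pIC, and 8.07, 7.78 and 8.63 in RApIC. All pIC and RApIC arrays lay below the PBS arrays, and ATRA arrays spread from above the PBS arrays to below the pIC arrays. Its residual SD of 0.39 was the largest of the 10, against 0.07 for Btg1 and a median of 0.13 over all genes. The difference was -0.52 ± 0.30 between pIC and PBS (adjusted p = 0.301) and -0.80 ± 0.26 between RApIC and PBS (adjusted p = 0.127). The within-group SD was 0.20 in PBS and 0.07 in pIC, against 0.55 in ATRA and 0.43 in RApIC. In a fit of pIC and PBS alone that difference had an SE of 0.13 and was called (adjusted p = 0.0479, from 0.0479 to 0.578 over the alternatives).

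The promoter windows of the BTG pair are shown to set the same family side by side, with CREB motifs and the EGR motif in capitals. That of Btg1 is chr10:96616751-96617000, plus strand, and that of Btg2 is chr1:134079156-134079405, minus strand (GRCm38.p6, RefSeq).
Btg1: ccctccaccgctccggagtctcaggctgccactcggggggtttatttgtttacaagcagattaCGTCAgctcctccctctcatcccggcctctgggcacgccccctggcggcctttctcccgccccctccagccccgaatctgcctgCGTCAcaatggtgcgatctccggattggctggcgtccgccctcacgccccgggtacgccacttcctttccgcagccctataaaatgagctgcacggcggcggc
Btg2: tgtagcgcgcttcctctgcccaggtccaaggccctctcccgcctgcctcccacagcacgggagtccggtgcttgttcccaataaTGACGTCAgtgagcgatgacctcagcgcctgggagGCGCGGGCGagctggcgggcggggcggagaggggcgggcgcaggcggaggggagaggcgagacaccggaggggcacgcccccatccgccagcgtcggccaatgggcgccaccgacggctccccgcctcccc
Btg1 holds the core TGACG, read on the opposite strand, at 187 to 183 and at 103 to 99 bases before the start, a core found in 17.8% of all windows. Btg2 holds the full element TGACGTCA, which contains that core on both strands, at 166 to 159 bases, and 1.55% of windows hold one. Btg2 also holds the EGR motif GCGNGGGCG at 131 to 123 bases, as do 4.7% of windows.

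Of 13 other measured genes of the BTG/TOB family and the CCR4-NOT deadenylase, Tob1 and Cnot7 fell in pIC against PBS and none rose. Tob1, an antiproliferative relative of the BTG proteins, lay between 8.44 and 8.52 in PBS, at 7.97, 8.09 and 8.31 in ATRA, at 7.39 and 7.46 in pIC, and between 7.24 and 7.56 in RApIC. Every ATRA array of Tob1 lay below the PBS arrays and above the pIC arrays, with a difference of -0.36 ± 0.11 between ATRA and PBS that did not pass (adjusted p = 0.523). Tob1 fell by 1.06 ± 0.12 in pIC (adjusted p = 0.0011) and by 1.13 ± 0.11 in RApIC (adjusted p = 0.001) against PBS, whichever array was left out. Cnot7, a deadenylase subunit, differed by -0.35 ± 0.09 in pIC (adjusted p = 0.022), lost without PBS replicate 1 or 2 or either pIC array.

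Of the ZFP36 genes, Zfp36 fell in both pIC-injected groups and Zfp36l1 passed the test in none. Zfp36, known as tristetraprolin, stood at 12.10, 12.28 and 12.11 in PBS, 12.31, 12.18 and 12.07 in ATRA, 11.06 and 11.13 in pIC, and 11.39, 11.23 and 11.36 in RApIC. PBS and ATRA overlapped, and the pIC and RApIC arrays formed separate lower ranges. The difference was -1.07 ± 0.10 between pIC and PBS (2.10-fold lower, adjusted p = 0.000565, rank 14 of all genes by the size of the moderated statistic). It was -0.86 ± 0.09 between RApIC and ATRA (adjusted p = 0.000921) and -0.84 ± 0.09 between RApIC and PBS (adjusted p = 0.00135). All 3 calls were kept in all 19 alternatives.

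Zfp36l1, a relative that also binds AU-rich elements, stood at 9.76, 9.91 and 9.54 in PBS, 9.64 and 9.87 in pIC, and 9.96, 9.80 and 9.88 in RApIC. All groups overlapped. The difference between pIC and PBS was 0.02 ± 0.12 (95% interval -0.26 to 0.29, adjusted p = 0.953), an interval that does not meet that of Zfp36 (-1.28 to -0.85). A second, dimmer probe set of Zfp36l1 differed by -0.14 ± 0.15 (adjusted p = 0.606). Zfp36l2, another relative and known to be needed for blood formation, differed by -0.02 ± 0.09 (adjusted p = 0.906).

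The windows of Zfp36 and of its relative Zfp36l1 are shown side by side, with every match in capitals. That of Zfp36 is chr7:28379229-28379478 and that of Zfp36l1 is chr12:80113014-80113263, both on the minus strand (GRCm38.p6, RefSeq).
Zfp36: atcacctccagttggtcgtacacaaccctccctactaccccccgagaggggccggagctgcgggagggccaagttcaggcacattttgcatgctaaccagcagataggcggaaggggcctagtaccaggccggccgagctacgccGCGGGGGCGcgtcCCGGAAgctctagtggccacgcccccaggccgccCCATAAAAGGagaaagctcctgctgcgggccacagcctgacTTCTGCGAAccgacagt
Zfp36l1: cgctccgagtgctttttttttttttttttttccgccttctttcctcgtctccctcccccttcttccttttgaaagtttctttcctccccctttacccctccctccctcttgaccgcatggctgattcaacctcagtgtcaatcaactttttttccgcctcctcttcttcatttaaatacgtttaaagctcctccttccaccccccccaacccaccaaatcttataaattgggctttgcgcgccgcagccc
Zfp36 holds an EGR motif at 105 to 97 bases before the start, the ETS core CCGGAA at 92 to 87 (12% of all windows), a CArG box at 58 to 49, and the STAT motif TTCNNNGAA at 17 to 9 (7.02% of windows). Zfp36l1 holds none of the 8 motifs, and neither do Ier3 and Ier5. Of these genes without a match, Ier3 fell in pIC against PBS, and Zfp36l1 and Ier5 were not called. Of the genes with a match, Zfp36 and Btg1 fell, and Egr2 and Btg2 were not called in the fit of all 4 groups. A relation of the motifs to the falls was not tested. The interferon motif (GAAA, any 2 bases, GAAA, in 3.46% of genes) was in none of the 7 genes. Nor was the exact retinoic acid string searched (AGGTCA, any 5 bases, AGGTCA, in 0.0111% of genes). Both are so rare that absence from 7 genes says little.

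Of 15 other measured ZFP36 family genes and mRNA decay partners, 3 rose and 1 fell in pIC against PBS. Dcp2, the decapping enzyme, rose by 0.76 ± 0.12 (adjusted p = 0.00406). Mapkapk2, the kinase that inactivates ZFP36 by phosphorylation, rose by 0.85 ± 0.18 (adjusted p = 0.011), a call lost without either pIC array. Exosc10, an exosome nuclease, differed by 0.31 (adjusted p = 0.0393, lost without any of 8 arrays in turn). Zc3h12a, an RNase of inflammatory mRNAs, fell by 0.54 ± 0.14 (adjusted p = 0.0248, lost without PBS replicate 1 or 2 or either pIC array). Of 27 other measured mRNAs known as ZFP36 family targets, 4 rose and 4 fell, with a median difference of -0.0062 against 0.0013 over all genes. Il6 rose by 0.63 (adjusted p = 0.00561, lost without pIC replicate 1), and Fos and Dusp1 fell by 1.44 (adjusted p = 0.000612) and 0.98 (adjusted p = 0.000598). The counts of risen targets lay between 0 without pIC replicate 1 and 8 without RApIC replicate 2, with 963 and 4052 of all genes called.

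**Figure D2:**
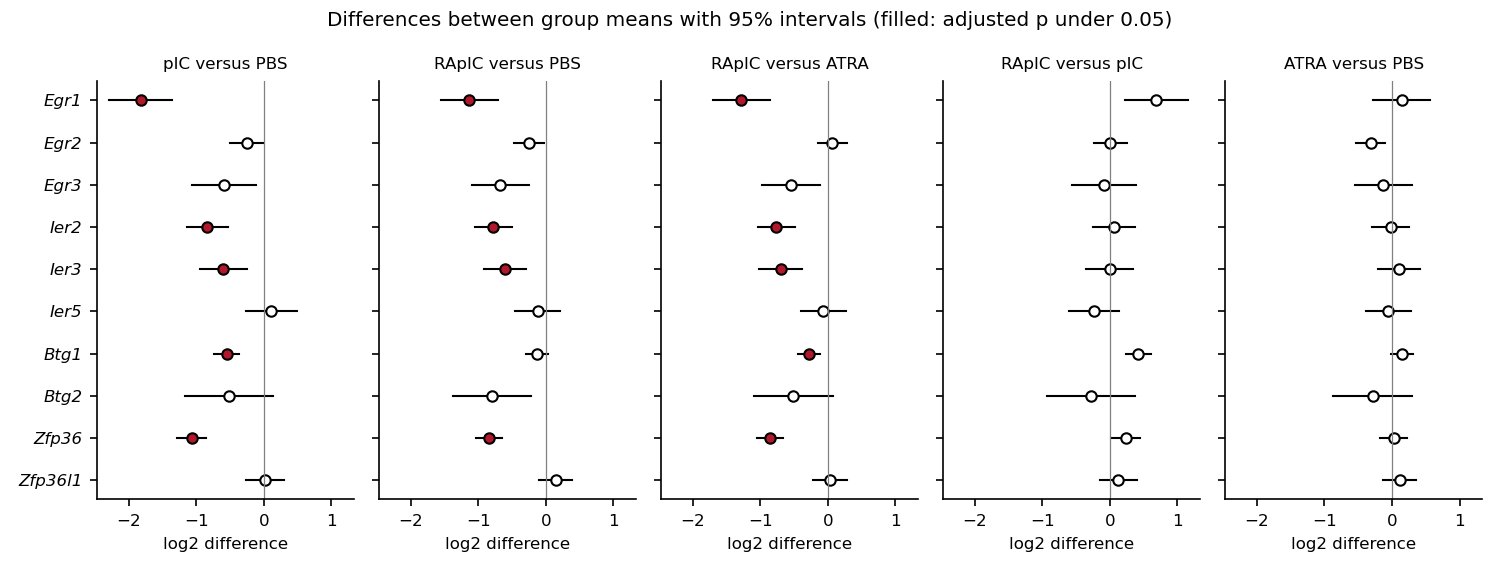
Log2 difference (x axis) with its 95% interval for each of the 10 genes (y axis) in the comparisons of the 4 groups. In pIC against PBS the interval of Zfp36 ran from -1.28 to -0.85 and that of Zfp36l1 from -0.26 to 0.29.

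Set against the background, 5 of the 10 genes fell in pIC against PBS (Egr1, Ier2, Ier3, Btg1 and Zfp36) and none rose. Of all 22180 genes 14.7% were called, 5.75% lower and 8.94% higher, and the median difference was -0.57 over the 10 genes against 0.0013 over all. Both pIC arrays lay below all PBS arrays for 7 of the 10 genes, as for 19.6% of all genes, and above them for 1, Ier5, as for 23.4%. The count fell to 3 without pIC replicate 1, with 963 of all genes called. It stood at 3 to 5 over all arrays left out in turn, with 664 to 4052 of all genes called.

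ATRA alone was compared with PBS to ask what the retinoid did at rest, and limma called none of the 10 genes. Of all genes 0.00451% were called, a single gene, with 1508 at an unadjusted p under 0.05. Among the 10 genes Egr2 alone had an unadjusted p under 0.05 (0.00882), its ATRA arrays lay below PBS as for 6.08% of all genes, and adjusted p-values ran from 0.562 to 0.994. Differences were 0.14 ± 0.19 for Egr1, 0.15 ± 0.07 for Btg1, whose ATRA arrays lay above PBS as for 6.61% of all genes, and 0.02 ± 0.09 for Zfp36 (95% interval -0.17 to 0.22).

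RApIC was compared with pIC to ask whether ATRA given first changed the level reached after pIC, and limma called none of the 10 genes and 0% of all genes. At an unadjusted p under 0.05 there were 2242 genes, 3 of them among the 10. Btg1 lay higher in RApIC by 0.42 ± 0.08 (95% interval 0.23 to 0.60, unadjusted p = 0.000428, adjusted p = 0.242, rank 39 of all genes). Egr1 lay higher by 0.69 ± 0.21 (95% interval 0.22 to 1.16, adjusted p = 0.346), and Zfp36 by 0.23 ± 0.10 (95% interval 0.02 to 0.45, adjusted p = 0.461). All RApIC arrays lay above both pIC arrays for these 3 genes, as for 9.74% of all genes, and below them for Ier5, as for 17.4%. With array weights in the fit Btg1 alone of the 10 passed, at 0.45 ± 0.07 (adjusted p = 0.0341, from 0.0341 to 0.604 over the alternatives), one of 112 genes called. For Ier2 and Ier3 the differences were 0.06 (95% interval -0.25 to 0.36) and -0.0026 (95% interval -0.35 to 0.35).

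RApIC was compared with ATRA for the effect of pIC in mice that had received ATRA, and with PBS for the combined injection. Against ATRA 5 of the 10 genes fell, the same 5 as in pIC against PBS, and none rose, with 7.21% of all genes called, 3.71% lower and 3.5% higher. RApIC arrays lay below all ATRA arrays for 6 of the 10, as for 12.4% of all genes, and above them for none, as for 11.7%. Against PBS 4 fell, Btg1 being the one that did not pass, with 3.11% of all genes called, 1.51% lower and 1.61% higher. RApIC arrays lay below all PBS arrays for 8 of the 10, as for 10.5% of all genes, and above them for none, as for 9.82%. Median differences over the 10 genes were -0.53 and -0.64, against -0.0033 and -0.0095 over all genes. The comparisons share samples and are not independent of each other. Without RApIC replicate 2, 4 of the 10 fell against ATRA and 4 against PBS, with 3214 and 2469 of all genes called. Against ATRA 3 fell without ATRA replicate 1 or 2 or RApIC replicate 1 or 3, with between 476 and 624 of all genes called. Without PBS replicate 2, 1 of the 10 fell against PBS, with 171 of all genes called. In fits of the compared groups alone 3 fell against ATRA and 1 against PBS, with 305 and 70 of all genes called.

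The interaction tests whether the pIC effect differed with ATRA, and limma called none of the 10 genes and 0% of all genes, with 1390 genes at an unadjusted p under 0.05. Btg1 alone of the 10 was among these, at 0.27 ± 0.11 (95% interval 0.03 to 0.52, adjusted p = 0.789). The value of Egr1 was 0.55 ± 0.29 (95% interval -0.09 to 1.18, adjusted p = 0.808), so the smaller difference of Egr1 in RApIC was not shown to differ from that in pIC alone.

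The median of the 10 genes relative to the PBS mean summarises each array. It lay between -0.10 and 0.12 in PBS, between -0.19 and 0.11 in ATRA, at -0.55 and -0.56 in pIC, and at -0.62, -0.60 and -0.39 in RApIC replicates 1, 2 and 3. All arrays of the pIC-injected groups lay below all others. In RApIC replicate 2, at -0.60, the HSC list lay at -0.14, the T and NK cells list at 0.05 and the erythroid list at -0.29. The part of these cell markers in the values of the 10 genes was not tested.

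**Figure D3:**
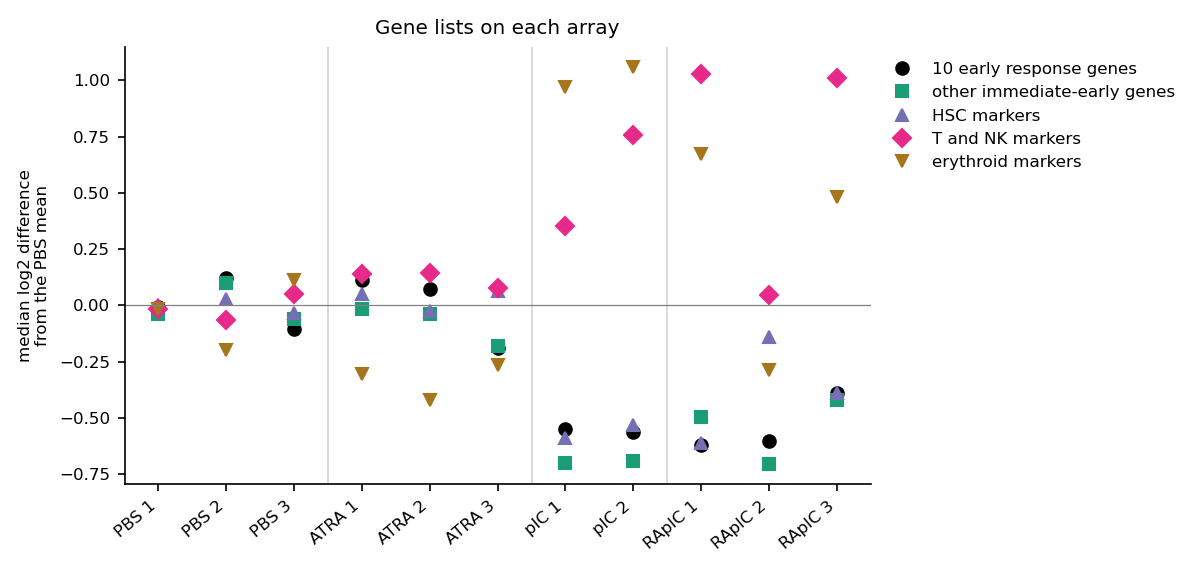
Median log2 difference from the PBS mean (y axis) over each gene list, by array and group. The 43 other immediate-early genes lay between -0.70 and -0.42 in all 5 arrays with pIC. In RApIC replicate 2 the HSC list was at -0.14, the T and NK cells list at 0.05 and the erythroid list at -0.29.

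Other immediate-early genes, from the Fos, Jun, Nr4a, Klf and Dusp families and others, fell widely in the same comparisons. Of 43 measured, 24 fell and 1 rose in pIC against PBS, with a median of -0.75. Against ATRA and PBS, 23 and 21 fell in RApIC and 1 rose. Of all genes, 5.75% were called lower and 8.94% higher in pIC against PBS. In RApIC, 3.71% were called lower and 3.5% higher against ATRA, and 1.51% and 1.61% against PBS. Array medians were -0.70 and -0.69 in pIC and -0.50, -0.70 and -0.42 in RApIC. Fosb, an AP-1 subunit, fell by 1.42 ± 0.10 in pIC against PBS (adjusted p = 0.000159). Sik1, a kinase of the CREB pathway, fell by 1.67 ± 0.15, and Nfkbiz, an atypical nuclear inhibitor of NF-kB, by 1.28 ± 0.12 (both adjusted p = 0.000565). The gene that rose was Gadd45g, a stress and growth arrest gene, by 2.35 ± 0.36 (adjusted p = 0.00332), and in RApIC its calls were lost without RApIC replicate 1 or 3 or any array of the other group. The count of those that fell in RApIC against ATRA was 15 without ATRA replicate 1 or RApIC replicate 3, with 594 and 476 of all genes called.

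Of the regulators upstream of these genes, 11 of serum response factor, its ETS partners and cofactors were measured, with 1 risen and 3 fallen in pIC against PBS and a median of -0.12. Srf rose by 0.40 ± 0.12 (adjusted p = 0.0443). The cofactor Mrtfb fell by 0.68 ± 0.16 (adjusted p = 0.0172), the ternary complex factor Elk3 by 0.39 (adjusted p = 0.034) and the coactivator Crebbp by 0.28 (adjusted p = 0.0357). Each of the 4 calls was lost without PBS replicate 2 or either pIC array, and some without other arrays. Of 13 Ras and MAP kinase genes, Map2k2 alone passed, at 0.50 ± 0.13 (adjusted p = 0.0273), lost without PBS replicate 1 or 2 or either pIC array. Of 13 other genes known as EGR1 targets, Tgfb1, a cytokine that holds HSCs quiescent, rose by 0.64 ± 0.10 (adjusted p = 0.0038), Nab2 fell, and the rest did not pass.

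Heat shock genes, which tissue handling can raise as it raises early response genes, were counted beside these. Of 10 measured, Hspd1 and Hsph1 rose in pIC against PBS, and the list median was 0.27. It lay at 0.29 and 0.30 in the pIC arrays and at 0.39, 0.03 and 0.22 in RApIC. In RApIC replicate 2 the median of the 10 early response genes was -0.60. The call of Hspd1 was lost without PBS replicate 2 or either pIC array. The part of handling in the results was not tested.

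**Figure D4:**
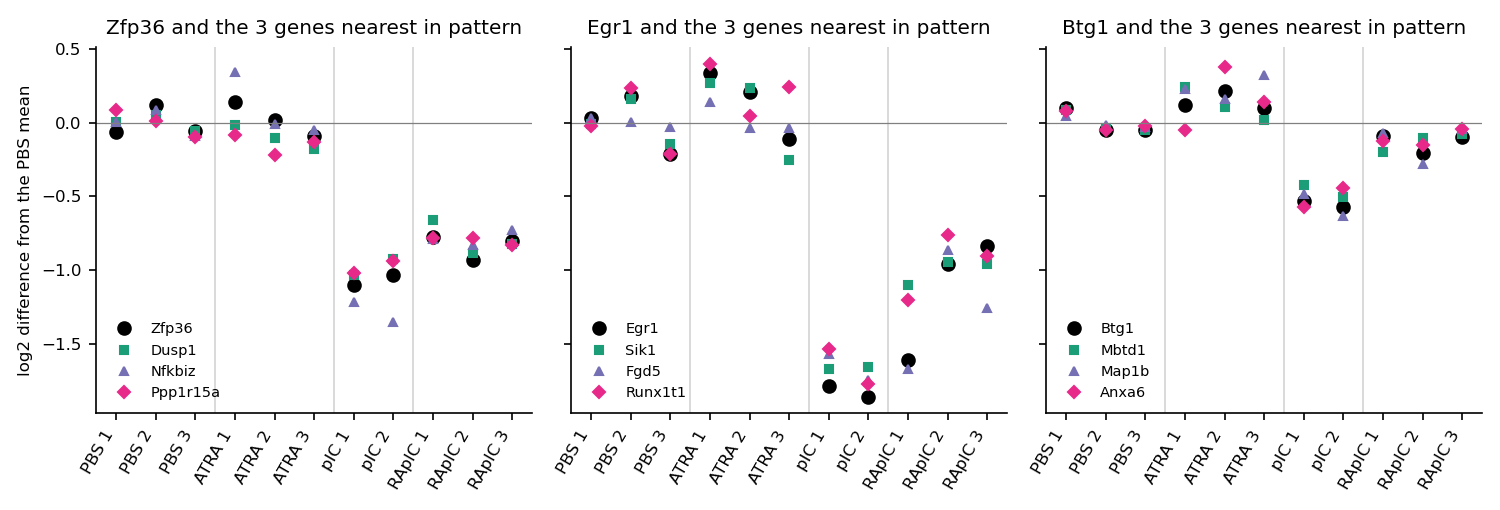
Log2 value relative to the PBS mean (y axis) in each of the 11 arrays (x axis) for Zfp36, Egr1 and Btg1. Each is shown with the 3 other genes whose pattern was nearest. Dusp1 followed Zfp36 most closely, with a root mean square difference of 0.0899.

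The genes nearest in pattern were found by the root mean square difference over the 11 arrays among 22170 other genes, which describes likeness of measured values only. Nearest to Zfp36 were Dusp1, a MAP kinase phosphatase (0.0899), Nfkbiz (0.128) and Ppp1r15a, a phosphatase subunit of the stress response (0.129). Dusp1 and Nfkbiz are in the list of other immediate-early genes, and Ppp1r15a is not. Nearest to Egr1 were Sik1 (0.18), the HSC marker Fgd5 (0.194) and the corepressor Runx1t1 (0.199). Nearest to Ier2 were Mllt3, a factor that maintains HSCs (0.129), Pccb (0.136) and Tead2 (0.136). Nearest to Ier3 were I730030J21Rik (0.133), Mertk (0.144) and Arhgef11 (0.145). Nearest to Btg1 were Mbtd1 (0.0804), Map1b (0.0859) and Anxa6 (0.0881), none of them in the list of other immediate-early genes. Their group means in RApIC lay between -0.13 and -0.11, beside between -0.56 and -0.46 in pIC.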

How the data were processed

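Total RNA of sorted HSCs was extracted with the PicoPure kit, DNase-treated and biotin-labelled for Affymetrix arrays, per the labels' protocols. The authors deposited a table of log2 intensity with 41345 probe sets and 11 columns, all mapped to samples; oligo 1.36.1, RMA (background correction, quantile normalisation, median polish) and limma 3.28.20 are named per the submitters' processing notes. Such normalisation gives the arrays like distributions, so differences are relative. The number of arrays limits the precision.

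Of the probe sets, 23521 had 1 gene symbol, 1814 several and 16010 none listed. Each gene took its probe set with the highest mean, giving 22180 genes. limma 3.58.1 (R 4.3.3) fitted 4 group means to all 11 arrays (7 residual degrees of freedom, 10.72 with the prior), and 6 contrasts were tested two-sided. Calls were made at 0.05 after Benjamini-Hochberg adjustment over all genes. Rises and falls are named only for called genes. Errors are SE of the fit. Code was tested on simulated data.

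The genes and lists were chosen with earlier results of these data known. Named are the 10 genes, up to 3 per pathway list and contrast by adjusted p, lists' few called genes, and 3 nearest patterns per called gene; other named genes were chosen after their values were seen. Alternatives were probe set choice, filters, normalisation, model settings, the replicate block and leaving out each array. Leaving arrays out of the list counts was added after seeing the data.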

Additional observations from a re-analysis of the deposited data

How the results depend on the processing

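Over up to 19 alternatives, 1130 values of the 10 genes were recomputed: 1029 kept direction and side of the threshold, 41 lost a call, 4 gained one, none that was called changed sign, and 56 uncalled values changed sign. The count of the 10 genes called in pIC against PBS was 5 and ran from 3 to 5 with 1 array left out, with 6 in a fit of those groups alone. It was 5 in RApIC against ATRA (3 to 5 with 1 array left out, 3 in a fit of those groups alone) and 4 in RApIC against PBS (1 to 4, and 1 in a fit of those groups alone). It was 0 in RApIC against pIC (0 to 0, and 1 with array weights), and 0 under every alternative in ATRA against PBS and in the interaction. The cause of these moves was not tested. Leaving out arrays or groups also leaves fewer samples in the fit. Over all genes, calls numbered 3260 in pIC against PBS (664 to 4052 with 1 array left out, 3038 in a fit of those groups alone). They numbered 1599 in RApIC against ATRA (476 to 3214, 305 in a fit of those groups alone). In RApIC against PBS they numbered 690 (159 to 2469, 70 in a fit of those groups alone). Zfp36 kept its calls in all 3 contrasts, Egr1 and Btg1 in pIC against PBS, and Egr1 and Ier2 in RApIC against ATRA. Groups share replicate numbers. Deviations from group means correlated from -0.11 to 0.10 in 15 pairs of the same number, 0 of them over 0.1. In 30 pairs of different number they correlated from -0.14 to 0.11, 3 of them over 0.1. With 2 or 3 arrays a group, this check has little power to show a pairing. With the replicate number as a block, 5, 4 and 4 of the 10 genes were called in pIC against PBS, RApIC against ATRA and RApIC against PBS, and 0 in the others. Of all genes, 2835, 1358 and 518 were called in the same order. With 2 or 3 arrays a group, the wide intervals of Btg2, Egr1 and Egr3 limit what could be called.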
